A study of Mus musculus with 134 samples.

Results

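The 134 mammary tumors of a MOLF/Ei backcross were divided by their level of F13a1, a chromosome 13 gene, and the other genes were then compared between the 2 groups. The level was the log2 signal of the single probe set annotated to F13a1 alone, and the dividing value was 8.14, the midpoint of the 10th percentile (6.48) and the 90th percentile (9.79) of the 134 tumors. This gave 70 F13a1-high tumors and 64 F13a1-low tumors, so that 52.2% of the tumors were high. The groups were chosen by the measured F13a1 values, so the F13a1 levels are given as a description with no test.

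All animals were PyMT-positive N2 females. Their mothers were FVB/NJ, and their fathers were F1 carriers of the transgene, each with a dam of the wild-derived MOLF/EiJ strain and an MMTV-PyMT sire. The PyMT oncogene was driven by the mouse mammary tumor virus promoter in every animal, no tumor received a treatment, and the tumors were collected near the humane endpoint and snap frozen, with a mouse number of its own in the label of each array (Mouse Gene 1.0 ST). Ages and genotypes were not analysed here. In such a backcross each autosomal segment is either FVB/FVB or FVB/MOLF, and no array of a parental strain was analysed, so the allele that goes with a high or low level is not known. The probes were designed on a reference genome, and whether any of them overlies a MOLF variant was not tested.

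F13a1 encodes the A subunit of coagulation factor XIII, the transglutaminase that crosslinks fibrin at the end of the clotting cascade. The A subunit is made by megakaryocytes and platelets and by cells of the monocyte and macrophage lineage, where the transcript is a familiar marker of tissue-resident macrophages. The B subunit, F13b, is a carrier made in the liver. A gene of this kind can differ between tumors through the number of cells that express it or through the amount of transcript that each cell makes, and in bulk RNA fewer cells of a type and less RNA per cell cannot be told apart.

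The stretches upstream of F13a1 are shown because the whole division rests on the level of this transcript. The RefSeq table (GRCm38.p6, the C57BL/6J reference, which is neither parental strain) gives 2 start sites on the minus strand of chromosome 13, at chr13:37050245-37050494 and chr13:37049214-37049463 for the 250 bases before each start. Capitals mark a match to CCAAT or to its reverse complement.
Upstream of the outer start: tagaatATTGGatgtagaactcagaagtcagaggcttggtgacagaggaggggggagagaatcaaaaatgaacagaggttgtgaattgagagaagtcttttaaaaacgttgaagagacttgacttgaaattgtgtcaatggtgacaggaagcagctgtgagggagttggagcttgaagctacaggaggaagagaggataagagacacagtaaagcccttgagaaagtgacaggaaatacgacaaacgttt
Upstream of the inner start: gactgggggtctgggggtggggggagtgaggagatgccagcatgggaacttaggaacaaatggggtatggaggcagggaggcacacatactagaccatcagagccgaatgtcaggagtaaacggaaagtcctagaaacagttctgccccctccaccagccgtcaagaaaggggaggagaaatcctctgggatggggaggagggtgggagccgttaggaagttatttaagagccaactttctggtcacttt
Both strands were searched for 4 motifs. AGATAA, bound by erythroid and megakaryocyte factors, is found in 9.99% of the 32851 windows of the same length, GAGGAAGT, the core of PU.1 sites, in 2.44%, CCAAT in 33.8% and TATAAA, the box of that name, in 12.4%. The only match was CCAAT on the opposite strand, 244 bases before the outer start. Which start the tumors use was not measured, and the sequence of the MOLF or FVB alleles was not analysed here.

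F13a1 varied over almost 5 log2 units, and its SD of 1.27 ranked 42nd among the 19938 genes measured. The F13a1-high tumors ran from 8.19 through a median of 9.45 to 10.63, and the F13a1-low tumors ran from 5.81 through a median of 7.17 to 7.96. The difference of the group means was 2.27 log2 units, or 4.82-fold. The tumors just inside the high group had values of 8.19 and 8.22 and those just outside it 7.96 and 7.92, and 23 of the 134 tumors lay within 0.5 log2 units of the dividing value. All 134 values were above 5.71, the level that 95% of 1196 olfactory and vomeronasal receptor genes did not reach, which served as a detection floor. A fit of 2 normal distributions with a common SD placed their means at 7.12 and 9.36 with an SD of 0.60.

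**Figure D1:**
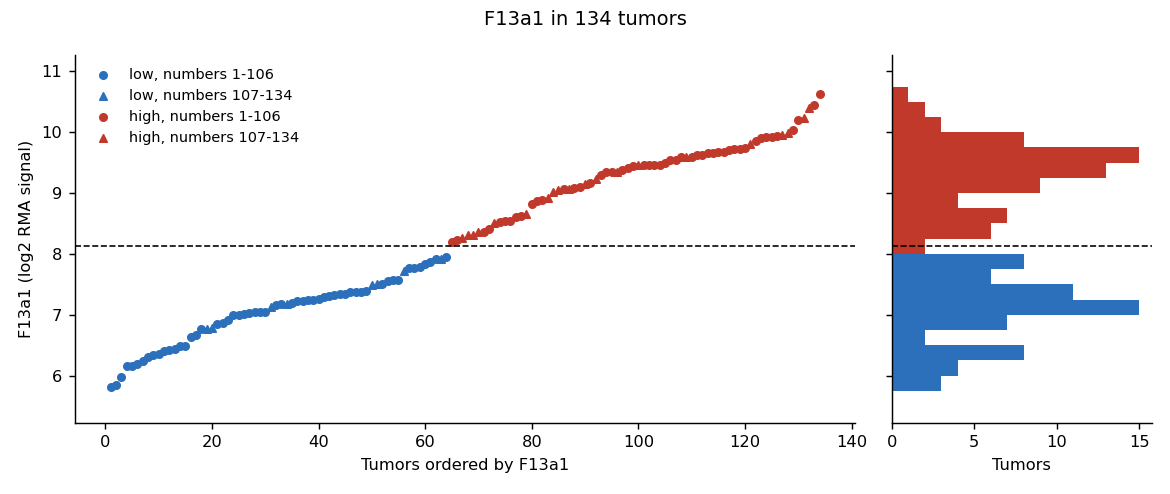
F13a1 log2 signal in each of the 134 tumors in rising order (left) and as counts of tumors per bin of signal (right). Blue marks the 64 low tumors and red the 70 high tumors, triangles mark label numbers 107 to 134, and the dashed line is the dividing value of 8.14.

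The label numbers fall into 2 runs, 1 to 106 and 107 to 134, and the groups were not spread evenly over them. The high group held 50 of 106 tumors in the lower run (47.2%) and 20 of 28 in the upper run (71.4%). In 10 of 12 cases the expression profile of an array numbered 97 to 108 was closest, among all other arrays, to that of the array 12 numbers later, with gene-centered correlations of 0.14 to 0.89 over the 12 pairs against a median of -0.02 over all pairs of arrays. The mouse numbers of these arrays differ, and 9 of the 12 pairs fell in the same F13a1 group. Whether some of these arrays repeat a tumor was not tested, so the number of separate tumors may be below 134 and p-values that count each array once may be too small. The tumor numbered 73, an F13a1-low tumor with a value of 7.83, had the lowest macrophage score of all 134, -2.09 (the mean standardized level of 24 macrophage genes), and a relative log expression spread, a measure of array quality, of 0.23. In 3 tumors this spread was higher, up to 0.27, and its median was 0.11 in both groups. The luminal genes Krt8, Krt18, Epcam and Elf5 had means of 12.12, 11.26, 11.24 and 10.47, far above the detection floor. None of the 9 luminal genes measured was called between the groups, against 0.11% of all genes.

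The comparison of F13a1-high with F13a1-low tumors asked which other genes go with this division. Genes were tested with limma and called at a Benjamini-Hochberg adjusted p under 0.05 over 19937 genes, F13a1 left out. Of these, 22 genes were called, which is 0.11% of the genes tested, 12 higher and 10 lower in F13a1-high tumors, and 19 of the 22 lie on chromosome 13. The called genes were 19 of 734 tested on chromosome 13 (2.59%) and 3 of 19203 on all other chromosomes (0.0156%). At an unadjusted p under 0.05 the share was 8.66% of all genes, 20.3% on chromosome 13, and between 5.59% on chromosome 15 and 10.7% on chromosome 14 among the other chromosomes. The median difference over all genes was -0.0013 and the median size of a difference was 0.025 log2 units overall and 0.032 on chromosome 13. Because neighboring genes are inherited together in a backcross, the chromosome 13 genes are not independent of each other.

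**Figure D2:**
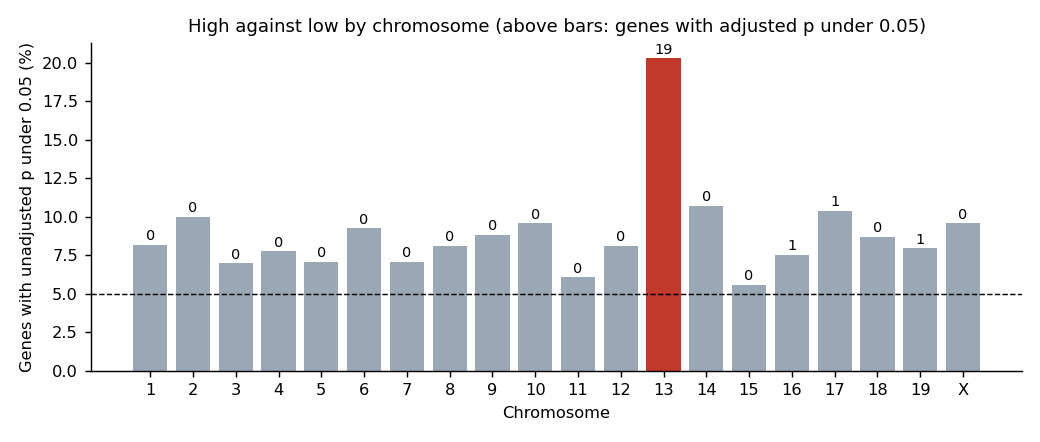
Percentage of the genes of each chromosome with an unadjusted p under 0.05 between F13a1-high and F13a1-low tumors, with the number of genes at an adjusted p under 0.05 above each bar. Chromosome 13 (red) stands at 20.3% with 19 genes called, and the dashed line marks 5%.

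Along chromosome 13, where 240 measured genes precede F13a1 and 494 follow it in the RefSeq order, the share of genes with an unadjusted p under 0.05 was highest next to F13a1. It was 42.0% of the 50 genes within 25 places on either side, with 40.0% before and 44.0% after. It was 22.0% among the genes more than 25 and up to 50 places away, 20.0% up to 100 places, 22.5% up to 200 places and 22.1% up to 300 places. The share was 12.0% in the next step, up to 400 places, and 9.57% in the last, up to 500 places, the latter near the 8.22% of the other chromosomes. The 19 called genes reached from 200 places before F13a1 to 355 places after it, with 6 before and 13 after. Of the 60 genes within 30 places, 7 were called, against 2.59% of all chromosome 13 genes and 0.11% of all genes. The direction of the differences was mixed, with 10 of the 19 higher and 9 lower in F13a1-high tumors, and among the 149 chromosome 13 genes with an unadjusted p under 0.05, 71 were higher and 78 lower.

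**Figure D3:**
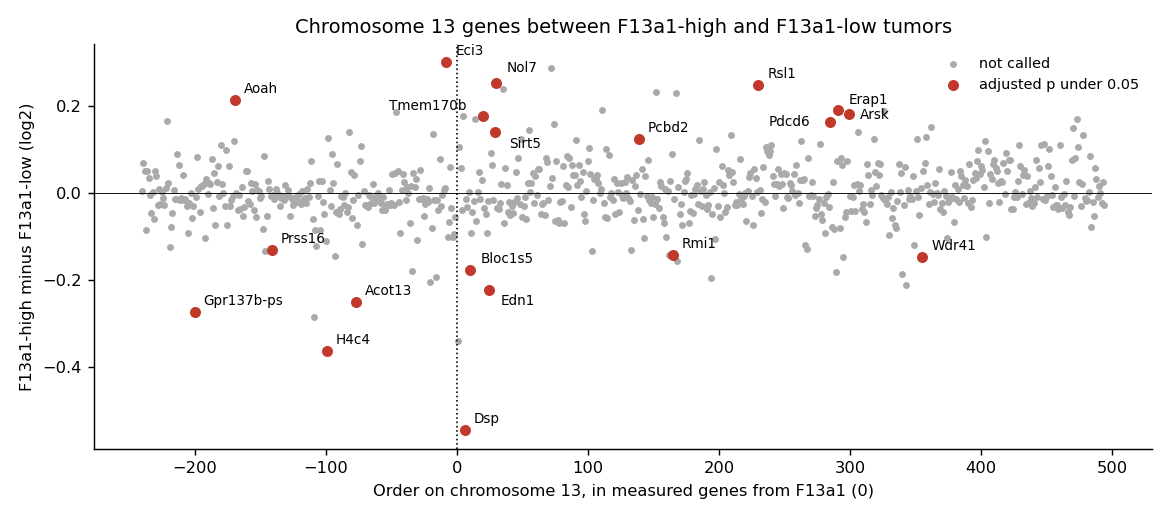
Difference of F13a1-high minus F13a1-low tumors in log2 units for each of the 734 other chromosome 13 genes, placed by measured-gene order from F13a1 at 0. Red points are the 19 genes at an adjusted p under 0.05, which lie on both sides of F13a1 and of no difference, from Eci3 at 0.30 to Dsp at -0.55.

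None of the 5 nearest measured genes on either side of F13a1 was called, against 0.11% of all genes and 2.59% on chromosome 13. At such shares the lack of calls does not set these neighbors apart. Lyrm4, Fars2, Ly86, Rreb1, Cage1 and Riok1 had an unadjusted p under 0.05 by limma, and Rpp40, Ppp1r3g, Nrn1 and Ssr1 did not. The gene right after F13a1 is Ly86, which encodes MD-1, the partner of the RP105 receptor of B cells and macrophages. Ly86 ran from 6.72 through 7.86 to 9.09 in F13a1-high tumors and from 6.29 through 8.22 to 9.13 in F13a1-low tumors, a difference of -0.34 ± 0.09 (SE) with an adjusted p of 0.0789. The Ly86 values of the groups overlapped over nearly their whole range, and 17 of the 70 high tumors lay above the median of the low tumors. The Ly86 difference was opposite in sign to that of F13a1 itself. The lower run of label numbers gave -0.37 and the upper run -0.52. With the macrophage score, which leaves out Ly86, as a covariate it was -0.46 with an adjusted p of 1.36e-11, the smallest of the 17 alternatives tried, which ranged up to 1 and of which 6 called the gene.

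Among the other neighbors, Riok1, a kinase of ribosome assembly 5 places after F13a1, differed by 0.18 ± 0.05 (SE, adjusted p = 0.133), and Rreb1, a zinc finger transcription factor, by 0.11 ± 0.03 (adjusted p = 0.129). Lyrm4, a factor of iron-sulfur cluster assembly, differed by -0.10 ± 0.03 (adjusted p = 0.317) and Fars2, a mitochondrial tRNA synthetase, by -0.09 ± 0.03 (adjusted p = 0.192). Rpp40, Ppp1r3g, Nrn1, Ssr1 and Cage1 had differences between -0.06 and 0.06 with adjusted p from 0.565 to 0.713. The differences of these 10 neighbors were thus no larger in size than 0.34.

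The lower genes on chromosome 13 were led by Dsp, which encodes desmoplakin, the protein that ties desmosomes to keratin filaments. Dsp, 6 places after F13a1, ran from 6.57 through 8.21 to 10.17 in F13a1-high tumors and from 7.55 through 8.87 to 10.11 in F13a1-low tumors. The F13a1-high tumors reached lower, with 10 of 70 below every low tumor, although the ranges overlapped. The difference was -0.55 ± 0.11 (SE, adjusted p = 0.00496 by limma). It was -0.53 in the lower run (adjusted p = 0.0739 by limma) and -0.60 in the upper run, and neither run alone called it. Acot13, an acyl-CoA thioesterase 77 places before F13a1, had the smallest p on the chromosome after Eci3. Acot13 ran from 7.57 through 7.93 to 8.48 in the high group and from 7.75 through 8.20 to 9.29 in the low group, and 7 of 70 high tumors exceeded the median of the low group. Its difference was -0.25 ± 0.04 (adjusted p = 1.8e-05).

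H4c4, a histone H4 gene, differed by -0.36 ± 0.06 (SE, adjusted p = 0.000257), and Gpr137b-ps, a pseudogene of a lysosomal membrane protein, by -0.27 ± 0.07 (adjusted p = 0.0469). The Gpr137b-ps call was lost without tumors 97 to 108 (adjusted p = 0.146), without tumors 109 to 120 (adjusted p = 0.0502) and with arrays 12 numbers apart as a random block (adjusted p = 0.0641). Both belong to sets of nearly identical copies, so that their probes may also read related genes. Edn1, which encodes the vasoconstrictor endothelin-1, lay 25 places after F13a1 and differed by -0.22 ± 0.05 (adjusted p = 0.0235). Edn1 alone among the 22 called genes did not keep its sign in both runs of label numbers (-0.28 in the lower and 0.05 in the upper run), and without tumors 97 to 108 its adjusted p was 0.0552. Bloc1s5, a subunit of a complex that builds lysosome-related organelles, differed by -0.18 ± 0.04. Wdr41, Rmi1 and Prss16 fell by 0.15, 0.14 and 0.13. Rmi1 is part of the complex that dissolves crossed DNA strands and Prss16 is a protease of the thymus, and the adjusted p of these last 4 genes lay between 0.00369 and 0.0355. Without tumors 97 to 108 the calls of Wdr41 (adjusted p = 0.0915), Rmi1 (0.0711) and Prss16 (0.131) were lost, and that of Prss16 also without tumors 109 to 120 (0.0595).

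The higher genes on chromosome 13 were led by Eci3, an enoyl-CoA isomerase of fatty acid oxidation that lies 8 places before F13a1. Eci3 ran from 5.54 through 6.03 to 6.82 in F13a1-high tumors and from 5.19 through 5.72 to 6.70 in F13a1-low tumors. The ranges overlapped almost fully, but 63 of 70 high tumors exceeded the median of the low tumors. The difference was 0.30 ± 0.05 (SE, adjusted p = 1.8e-05) and reached 0.27 in the lower run and 0.43 in the upper run. Nol7, a nucleolar protein gene, differed by 0.25 ± 0.05 (adjusted p = 0.00465), Tmem170b, a membrane protein gene, by 0.18 ± 0.04 (adjusted p = 0.00369) and Sirt5, a mitochondrial deacylase gene, by 0.14 ± 0.03 (adjusted p = 0.0025). These 3 genes lie 20 to 30 places after F13a1.

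Farther away, Aoah, 169 places before F13a1, encodes the enzyme that trims acyl chains from bacterial lipopolysaccharide and is expressed in macrophages. Aoah ran from 5.05 through 5.51 to 6.25 in the high group and from 5.00 through 5.29 to 5.79 in the low group, a difference of 0.21 ± 0.04 (SE, adjusted p = 0.00136). Its mean of 5.44 was under the detection floor, although 12 of 70 high tumors exceeded every low tumor. Erap1, the aminopeptidase that trims peptides for class I molecules, differed by 0.19 ± 0.05 (adjusted p = 0.0399), Arsk, a lysosomal sulfatase, by 0.18 ± 0.04 (adjusted p = 0.00465) and Pdcd6, a calcium-binding adaptor, by 0.16 ± 0.04 (adjusted p = 0.0218). These 3 genes lie close together, 285 to 299 places after F13a1. Rsl1, a zinc finger repressor gene of a clustered family, differed by 0.25 ± 0.06 (adjusted p = 0.029), and Pcbd2, a pterin dehydratase and transcription cofactor, by 0.12 ± 0.02 (adjusted p = 0.00369). With arrays 12 numbers apart as a random block Erap1 (adjusted p = 0.055) and Rsl1 (0.0641) lost the call, Rsl1 also without tumors 97 to 108 (0.131).

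Of the 3 genes called outside chromosome 13, Ifngr2 had the smallest p. Ifngr2, on chromosome 16, encodes the signaling chain of the receptor for interferon gamma. Ifngr2 ran from 10.08 through 10.45 to 10.87 in F13a1-high tumors and from 10.10 through 10.70 to 11.14 in F13a1-low tumors. Only 8 of 70 high tumors exceeded the median of the low tumors, although the ranges overlapped, and the difference was -0.21 ± 0.03 (SE, adjusted p = 1.8e-05). The lower run gave -0.18 and the upper run -0.25, and 16 of 17 alternatives called it. The other chain of the receptor, Ifngr1 on chromosome 10, differed by 0.08 ± 0.04 (adjusted p = 0.61). The ligand Ifng differed by -0.01 ± 0.02 (adjusted p = 0.876) and Irf1, a target of the pathway, by -0.0004 ± 0.05 (adjusted p = 0.999). None of 9 measured interferon response genes was called, against 0.11% of all genes, and their median difference was -0.06.

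Zfp119b, a zinc finger gene of chromosome 17 with close relatives, differed by 0.48 ± 0.11 (SE, adjusted p = 0.0294), from 4.86 through 6.39 to 7.34 in the high group and from 4.86 through 5.49 to 7.24 in the low group. The Zfp119b call was lost without the tumors numbered 109 to 120 (adjusted p = 0.097), without those numbered 97 to 108 (adjusted p = 0.146) and with the run of label numbers as a block (adjusted p = 0.125), over a range of 0.0105 to 1 across 17 alternatives. Gm6642, on chromosome 19, had a mean of 4.34, under the detection floor, and differed by 0.07 ± 0.02 (adjusted p = 0.0251). The Gm6642 call was lost without tumors 109 to 120 (adjusted p = 0.0591) and with arrays 12 numbers apart as a random block (adjusted p = 0.0641).

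Probe sets with several gene symbols or none were fitted apart from the genes. Of 13767 such probe sets 68 were called (0.494%), 59 higher and 9 lower in F13a1-high tumors, and their genes are not named here. The high-low difference was also compared between the 2 runs of label numbers. No gene was called for a change of the difference with the run (0% of 19937 genes by limma), with a smallest adjusted p of 0.204 and 456 genes at an unadjusted p under 0.05. Of the 22 called genes, the lower run had the same sign of the difference for 22 and the upper run for 21. The lower run alone called 11 of the 22 and the upper run alone 0. Both runs are parts of the tumors in which the genes were called, so the shared signs are not a replication.

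F13a1 is a macrophage gene, so the macrophage genes were looked at next. No member of the macrophage list was called (0 of 24 measured, against 0.11% of all genes), and 3 had an unadjusted p under 0.05, against 8.66% of all genes. The median difference of the list was 0.07 against -0.0013 for all genes, and 22 of the 24 were above 0. By run of label numbers, 23 of the 24 were above 0 in the lower run (median 0.07) and 11 in the upper run (median -0.01). Csf1r, the receptor of the macrophage growth factor, differed by 0.11 with a 95% interval of -0.0016 to 0.22, Adgre1, which encodes F4/80, by 0.10 (-0.03 to 0.22) and Cd68, a lysosomal protein, by 0.06 (-0.07 to 0.18). The largest difference of the list was that of Mrc1, the mannose receptor CD206, at 0.29 (0.09 to 0.50, adjusted p = 0.392). Every upper limit of the list was at most 0.50 log2 units. The macrophage score ran from -1.62 through -0.04 to 2.25 in F13a1-high tumors and from -2.09 through -0.05 to 1.09 in F13a1-low tumors, so the groups overlapped. Its means were 0.10 and -0.10 and its upper quartiles 0.58 and 0.36 in high and low tumors, with medians closer together than either. With the score as a covariate, all 22 genes called without it were called.

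The resident macrophage list gave the same count, with 0 of 20 measured genes called, 3 at an unadjusted p under 0.05 and a median difference of 0.08. Lyve1, a hyaluronan receptor, differed by 0.14 (0.02 to 0.26), Folr2, a folate receptor, by 0.13 (0.03 to 0.23), Pf4, platelet factor 4, by 0.18 (0.04 to 0.32) and Clec10a, a galactose-binding lectin, by 0.12 (-0.06 to 0.29), each with an adjusted p between 0.443 and 0.714. These intervals do not show that the levels were equal.

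**Figure D4:**
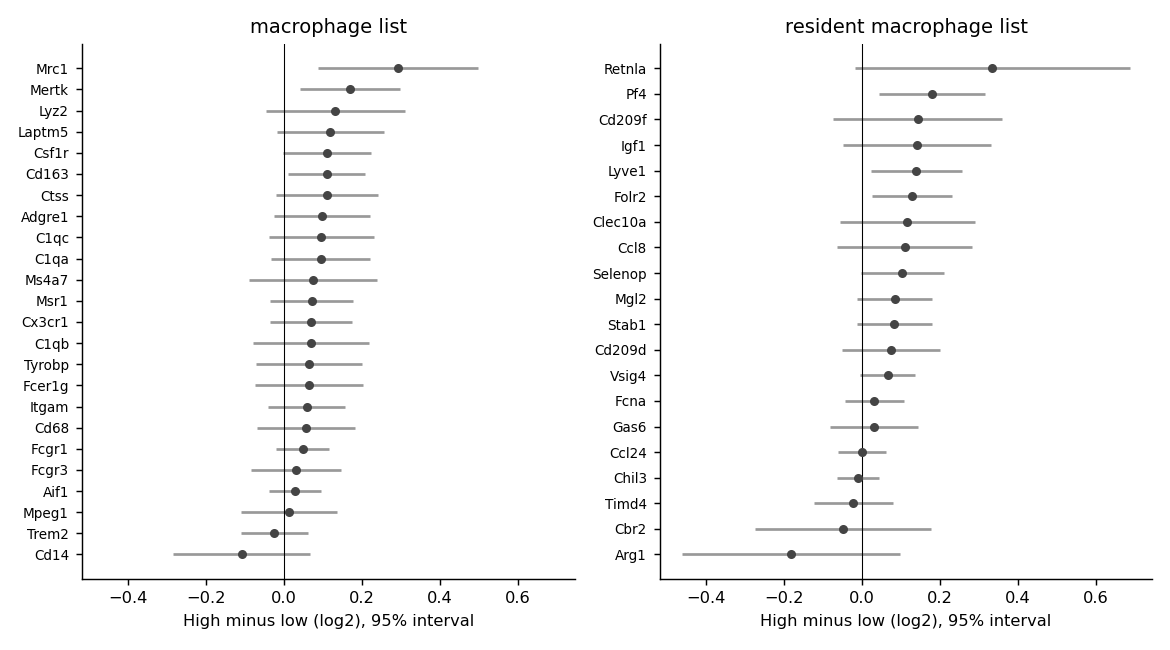
Difference of F13a1-high minus F13a1-low tumors in log2 units, with 95% confidence intervals from limma, for the 24 measured genes of the macrophage list (left) and the 20 of the resident macrophage list (right). No gene of either list was called, and the largest difference is that of Retnla at 0.33.

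Among the genes that act with factor XIII, none of 31 measured coagulation and fibrinolysis genes was called, against 0.11% of all genes. Their median difference was 0.0014, and 2 had an unadjusted p under 0.05 by limma, against 8.66% of all genes. The partner subunit F13b had a mean of 4.29, under the detection floor. The substrate genes of factor XIII, Fga, Fgb and Fgg, had means of 5.22, 5.25 and 5.69, also under the floor. They differed by 0.01, -0.06 and -0.15 with adjusted p of 0.935, 0.713 and 0.717, and F3, tissue factor, by 0.04 (adjusted p = 0.904). Of the 31 coagulation and fibrinolysis genes, 15 had a mean above the floor. None of the 8 transglutaminase genes was called, and Tgm2, the tissue transglutaminase, differed by 0.03 (-0.08 to 0.15). None of 10 measured platelet genes was called, with a median of -0.0003, and Itga2b, the platelet integrin, differed by -0.02 (-0.08 to 0.04). Across all 22 lists, 0 of 243 measured genes were called by limma, against 0.11% of all genes. At so low a share, 0 calls in lists of these sizes do not set them apart from all genes. The fibroblast list had the largest positive median, 0.11, and the skeletal muscle list the most negative, -0.14.

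Within each group F13a1 still varied by more than 2 log2 units. The division was a cut on these same values and fixed which of them fell in each group, so slopes within groups are not independent of it. The relation of the remaining F13a1 variation to the other genes was fitted as a slope, the change of a gene in log2 units per log2 unit of F13a1. With a slope common to both groups, 253 genes were called (1.27% of 19937), 67 positive and 186 negative, of which 14 lie on chromosome 13. The count fell to 41 when the groups were divided at the median of F13a1, which left 67 high tumors. It fell to 37 at 8.24, midway between the means of the normal fit, which left 68. Of the 253 genes, 38 were called at the median and 36 at 8.24, so the calls rest on where a few tumors near the dividing value were placed. Which of the genes named next kept the call there is not given here. The strongest positive slopes were those of Irf7, the regulator of type I interferon genes, at 0.38 ± 0.11 (SE, adjusted p = 0.0474), of Hey1, a Notch target, at 0.37 ± 0.08 (adjusted p = 0.00663), of Phf11d at 0.35 ± 0.08 and of Ssbp2, a single-stranded DNA binding protein on chromosome 13, at 0.34 ± 0.07. Pde7b, Rhoj, Luzp2, Plekhb1, Cpq and Epdr1 followed with 0.25 to 0.30. The most negative slopes were those of the basal keratin gene Krt15 at -0.42 ± 0.10 (adjusted p = 0.0147), of Trim29, also of basal epithelium, at -0.38 ± 0.09, of Lce1c, a cornified envelope gene, at -0.31 ± 0.08, of Atp6v1c2, a proton pump subunit, at -0.31 ± 0.07 and of Hunk, a kinase, at -0.29 ± 0.07. No macrophage, resident macrophage or platelet gene was called for the common slope.

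The slope was next fitted in each group separately. Among F13a1-low tumors 29 genes were called (0.145% of the genes tested), 27 of them positive (0.135%), and 6 of these were among the 20 measured genes of the resident macrophage list, namely Clec10a, Ccl8, Folr2, Lyve1, Cd209d and Cd209f. All 20 genes of the list had a positive slope in the low tumors, with a median of 0.21 against -0.0078 for all genes. Mrc1 of the macrophage list was called as well, together with Emilin2 of the monocyte list and Cd209a of the dendritic list. The other 23 macrophage genes measured were not called, and the macrophage list had a median slope of 0.04 in these tumors. Among F13a1-high tumors 89 genes were called (0.446%), 38 positive and 51 negative, none of them of the macrophage or resident macrophage list, whose median slopes there were -0.02 and -0.09.

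The difference between the slopes was itself tested, and 23 genes were called (0.115% of 19937), 19 of them with a lower slope in F13a1-high tumors. Clec10a had the smallest p. Its median was under the detection floor in each group, at 5.59 in low and 5.67 in high tumors. In low tumors Clec10a ran from 4.82 through 5.59 to 7.28 and rose by 0.48 ± 0.10 (SE) per log2 unit of F13a1, while its slope in high tumors was -0.30 ± 0.09, a difference of -0.79 ± 0.14 (adjusted p = 0.0018 by limma). The Mrc1 slope was 0.67 ± 0.12 in low tumors and -0.18 ± 0.11 in high tumors, a difference of -0.85 ± 0.16 (adjusted p = 0.00741). Ccl8, a chemokine of resident macrophages, had slopes of 0.51 and -0.19, with a difference of -0.71 ± 0.14 (adjusted p = 0.012). For Folr2, Lyve1 and Cd209d, a lectin gene, the slopes were 0.30 to 0.36 in low tumors and -0.10 to -0.14 in high tumors. By contrast Csf1r had slopes of 0.10 ± 0.08 and -0.05 ± 0.07, Adgre1 of 0.15 ± 0.08 and 0.01 ± 0.07, and Cd68 of -0.01 ± 0.08 and -0.06 ± 0.07. Without the 2 tumors of each group whose F13a1 lay farthest from the median of the group, the low slopes were 0.71 for Mrc1 and 0.53 for Clec10a.

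**Figure D5:**
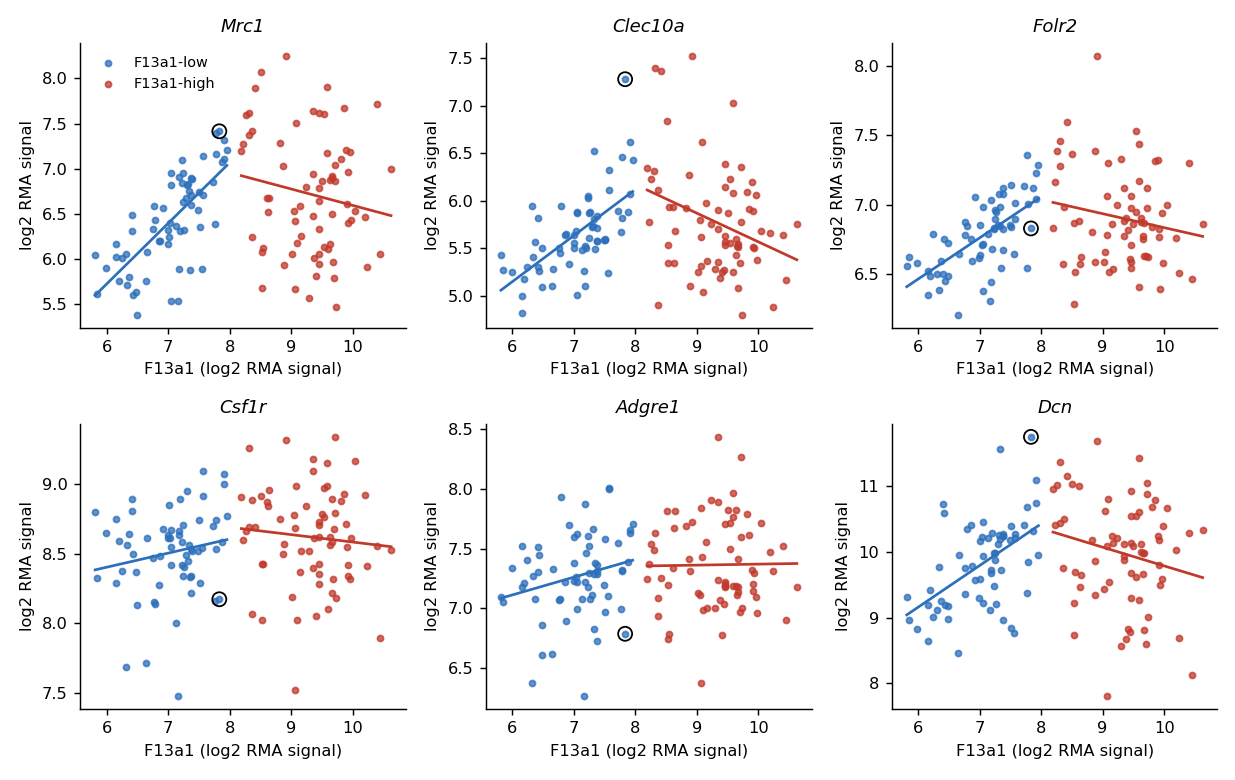
Log2 signal of 6 genes against the log2 signal of F13a1 in the 64 low tumors (blue) and the 70 high tumors (red), with a least-squares line for each group and the tumor numbered 73 circled. Mrc1, Clec10a and Folr2 were called for a positive slope in the low tumors and not in the high tumors, Dcn was called for the slope difference alone, and Csf1r and Adgre1 were not called in either group.

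Lists of other stromal cells also had positive median slopes in the low tumors, though no member was called, and their part in the result was not tested. The low slope had an unadjusted p under 0.05 by limma for 8 of 10 fibroblast, 6 of 9 endothelial, 1 of 7 adipocyte and 7 of 7 skeletal muscle genes. For comparison, 13 of the 20 resident macrophage genes and 2182 of all 19937 genes had such a p, so positive low slopes were not particular to the resident macrophage list. The median slope in low tumors was 0.20 for 10 fibroblast genes, 0.24 for 9 endothelial genes, 0.38 for 7 adipocyte genes and 0.74 for 7 skeletal muscle genes, with 9, 8, 7 and 7 of them positive. Without the tumor numbered 73 these medians were 0.16, 0.14, 0.20 and 0.58, with 9, 7, 7 and 7 positive. In high tumors the same lists had medians of -0.09, -0.08, -0.38 and -0.12. Among the genes called for the slope difference were Dcn, the proteoglycan decorin of the fibroblast list, with -0.92 ± 0.22, and, chosen after their values were seen, Dpt (dermatopontin, a matrix protein) with -1.35 ± 0.29, Efemp1 (fibulin 3) with -1.19 ± 0.25, Serping1, the complement C1 inhibitor, with -0.85 ± 0.18, and Ifi205 with -1.03 ± 0.22. The slopes of the luminal genes had medians of -0.08 in low and 0.06 in high tumors.

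The calls for slopes in low tumors and for slope differences depended on the tumor numbered 73. Those for slope differences also depended on the tumors near the dividing value. Of the 253 common slopes 234 were still called without tumor 73, as were all 89 slopes in high tumors. Without the tumor numbered 73, which had the highest Clec10a (7.28, against at most 6.62 in the other low tumors), Mrc1, Dcn and Adipoq of the 64 low tumors and the lowest Ccl8, 8 genes were called in low tumors, 2 of them of the resident macrophage list (Ccl8 and Folr2), and 15 for the slope difference, among them Clec10a (adjusted p = 0.00348) and Mrc1 (adjusted p = 0.0105). All 20 resident macrophage genes had a positive low slope without that tumor as well, with a median of 0.18. No slope difference was called when the 10 tumors nearest the dividing value were left out, when the tumors numbered 109 to 120 were left out, or in the upper run of label numbers alone, and 4 were called with the run of label numbers as a block. With each pair of arrays 12 numbers apart as a random block, 15 slope differences were called, Dcn not among them (adjusted p = 0.0865), and 23 slopes in low tumors, 6 of them of the resident macrophage list.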

How the data were processed

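Total RNA of 134 mammary tumors had been hybridized to Mouse Gene 1.0 ST arrays. The authors deposited log2 values, which per the labels were made with RMA (background correction, quantile normalization and probe summary). The program version was not given in the sources used here. RMA centers arrays on a common distribution, so a shift of most genes would not be seen, and an array value has no read depth, so that precision rests on the number of tumors. Of 35556 probe sets, 21789 had 1 gene symbol, 1621 several and 12146 none, and 21766 of the first matched the RefSeq table, which also gave the chromosome and gene order. The probe set with the highest mean stood for a gene (999 genes had several), leaving 19938 genes.

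F13a1-high tumors lay above the midpoint of the 10th and 90th percentile of F13a1. Differences, slopes and interactions were fitted with limma 3.58.1 in R 4.3.3 over all genes, with Benjamini-Hochberg adjustment and a threshold of 0.05. On simulated data of 19937 genes the high-low comparison called 99 of 100 genes shifted by 1 SD. It called 23 of 100 shifted by 0.5 SD. There was 1 false call. Whether these counts hold with linked genes or with arrays of similar profile, as in the tumors, was not tested. The members and gene lists were chosen with earlier results of these data known. A rule named F13a1, its 5 neighbors on each side, called genes with the largest differences (10 per direction, on and off chromosome 13), called list members, and called genes with the largest common slopes (10 positive, 5 negative). Uncalled list and interferon receptor genes, and the 4 genes outside the lists with the largest slope differences, were named beyond it. Slopes within a single group were added after the data were seen. The lists covered macrophages, monocytes, dendritic cells, platelets, clotting, transglutaminases, other blood cells, stroma, epithelium, milk, proliferation, interferon response and hypoxia. Alternatives changed the dividing value, probe sets, normalization, filter, covariates, weights and tumors.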

Additional observations from a re-analysis of the deposited data

Results flagged for a closer look

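The slope on F13a1 differed between F13a1-high and F13a1-low tumors by the test of the difference itself (limma over 19937 genes, adjusted p under 0.05, n = 70 and 64 tumors) for 23 genes, of which 12 are given here, the 8 that belong to a list and the 4 with the largest differences outside the lists. In these 12 the slope in high tumors was lower than in low tumors by the following amounts per log2 unit of F13a1. Among resident macrophage genes the difference was -0.79 for Clec10a, -0.71 for Ccl8, -0.47 for Cd209d, -0.44 for Lyve1 and -0.40 for Folr2. It was -0.85 for Mrc1 of the macrophage list, -0.23 for Emilin2 of the monocyte list and -0.92 for Dcn of the fibroblast list. Outside the lists it was -1.35 for Dpt, -1.19 for Efemp1, -1.03 for Ifi205 and -0.85 for Serping1. The median of Clec10a was under the detection floor in each group. Dcn and Emilin2 lost the call without the tumor numbered 73 (adjusted p = 0.0831 and 0.0807), Dcn also with arrays 12 numbers apart as a random block (adjusted p = 0.0865), and none of the 12 was called without the tumors numbered 109 to 120 or without the 10 tumors nearest the dividing value. With the run of label numbers as a block 3 of the 12 were called (Ccl8, Clec10a and Mrc1), and without the tumors numbered 97 to 108 there were 5 (Clec10a, Folr2, Lyve1, Mrc1 and Efemp1).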

How the results depend on the processing

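The chromosome 13 count was recomputed in 17 other ways and the macrophage list count in 16, which leave out the macrophage score, made from that list. Of the 19 chromosome 13 calls, the number became 31 with F13a1 as a continuous covariate, 42 with array weights, 10 in the lower run of label numbers (1 to 106) alone and 0 in the upper run (107 to 134) alone, where 28 tumors limit the precision. The 3 calls outside chromosome 13 became 1 without the 10 tumors nearest the dividing value, 22 with continuous F13a1, 15 with array weights, 1 without tumors 109 to 120 and 0 in tumors 107 to 134 alone. The macrophage list stayed at 0 calls in every alternative. The 22 genes called were all called with array quality, array weights, the macrophage score, or tumor 73 left out, and 18 and 15 of them without tumors 109 to 120 and 97 to 108. In tumors 107 to 134 alone the sign turned for Edn1 (0.0542) and for uncalled genes, among them Ppp1r3g (0.0178), Nrn1 (0.0176) and Ssr1 (-0.002) next to F13a1, Cd68 (-0.02), Ccl8 (-0.09), Fgb (0.0081) and Itga2b (0.04). Common-slope calls (253) became 41 and 37 at the other dividing values, 390 without dim genes, 978 with array weights, 401 without tumors 109 to 120, 750 in the lower run and 0 in the upper. Slope-difference calls (23) became 0 without the 10 nearest tumors, 4 with the run block, 15 without tumor 73, 0 and 6 without tumors 109 to 120 and 97 to 108, 1 in the lower run and 0 in the upper. Calls in low tumors (29, of which 6 of the resident list) became 46 after a further quantile normalization, 19 with the run block, 97 with array weights, 8 (2) without tumor 73 and 0 (0) in tumors 107 to 134. Calls in high tumors (89) became 25 and 32 at the other dividing values, 58 without the 10 nearest tumors, 146 with array quality, 409 with array weights, 142 without tumor 73, 164 and 32 without tumors 109 to 120 and 97 to 108, 201 in the lower run and 0 in the upper. The difference between runs had 1 call with array weights. With arrays 12 numbers apart as a random block, chosen after seeing the data (consensus correlations of 0.54 for differences and for slopes), there were 18 calls on chromosome 13 and 2 outside it, 316 common slopes, 15 slope differences, and 23 and 117 slopes in low and high tumors. Of the 22 genes called 18 were called, and Rsl1, Erap1, Gpr137b-ps and Gm6642 had adjusted p of 0.055 to 0.0641. The cause of these changes was not tested.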
